A study of Mus musculus with 8 samples.

Results

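The major histocompatibility complex (MHC) class I genes described here are 7 heavy chains, H2-K1, H2-D1, H2-Q4, H2-Q6, H2-Q7, H2-T23 and H2-M3, and the light chain beta-2 microglobulin, B2m. They were found by symbol in the deposited table of normalized counts, and all 8 were present among its 34478 genes. The values came from 4 primary murine pancreatic ductal adenocarcinoma (PDAC) cell lines, #1, #3, #5 and #10. Each line was sequenced once after DMSO, the solvent control, and once after 48 h with trametinib, a MEK inhibitor (MEKi), given at that line's own IC50. All 8 libraries came from lines of 1 genetically engineered mouse model, whose alleles include Ptf1awt/Cre and Trp53loxP/loxP, so the controls carry the same alleles as the treated cells. In this model Ptf1a-driven Cre acts in the pancreatic lineage, where it removes Trp53. The lines were grown from tumor pieces, each line is 1 culture, and the labels give neither the mouse strain nor whether each line came from a separate mouse. The comparison asks how inhibition of MAPK signaling changed RNA of the antigen-presenting machinery.

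A class I molecule is a heavy chain bound to B2m and to a short peptide, mostly made by the proteasome, carried into the endoplasmic reticulum by the TAP transporter and loaded with the help of tapasin. Cytotoxic T cells read the peptide on the classical heavy chains H2-K1 and H2-D1. The others are non-classical: H2-T23 encodes Qa-1, a ligand of the NKG2A receptor of natural killer cells, H2-Q6 and H2-Q7 encode forms of Qa-2, and H2-M3 presents peptides with a formylated methionine. Tumor cells often have low class I, and interferons and NF-kappaB signaling are known to raise its transcription through elements just before the start site.

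These elements are shown for the 5 genes that passed the test below and for H2-T23. Sequences are from RefSeq promoter windows on GRCm38.p6, which run from 250 bases before to 50 after the annotated start, and 8 of 8 genes matched by symbol. The gene spans given below come from a separate annotation with other starts. By those spans the stretches of H2-D1 and H2-T23, and the end of that of H2-M3, lie inside the gene. Each is a stretch of its window, printed 5′ to 3′ on the strand of its gene. Capitals mark every match within the stretch to a motif searched on both strands. A CCAAT box of H2-K1 and a CRE half-site in each of H2-Q4 and B2m lie after the start and are not printed.
B2m (chr2:122147542-122147644, plus strand): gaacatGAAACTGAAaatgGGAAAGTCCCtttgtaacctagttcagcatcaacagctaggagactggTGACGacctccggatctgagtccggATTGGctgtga
H2-K1 (chr17:34000353-34000464, minus strand): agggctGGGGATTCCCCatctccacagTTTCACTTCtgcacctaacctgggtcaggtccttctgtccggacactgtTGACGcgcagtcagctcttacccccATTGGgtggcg
H2-D1 (chr17:35262917-35263051, plus strand): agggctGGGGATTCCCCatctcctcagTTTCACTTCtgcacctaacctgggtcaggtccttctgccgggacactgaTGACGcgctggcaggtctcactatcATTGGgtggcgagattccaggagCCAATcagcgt
H2-Q4 (chr17:35379437-35379572, plus strand): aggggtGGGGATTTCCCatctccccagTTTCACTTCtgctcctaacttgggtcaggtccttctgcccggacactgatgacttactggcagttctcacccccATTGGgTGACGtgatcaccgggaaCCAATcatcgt
H2-M3 (chr17:37270102-37270223, plus strand): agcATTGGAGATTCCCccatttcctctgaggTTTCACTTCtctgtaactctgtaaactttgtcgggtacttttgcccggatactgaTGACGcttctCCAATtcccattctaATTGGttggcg
H2-T23 (chr17:36032743-36032830, minus strand): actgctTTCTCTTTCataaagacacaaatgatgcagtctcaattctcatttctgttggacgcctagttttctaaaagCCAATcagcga

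The motifs were the NF-kappaB consensus, the interferon-stimulated response element (ISRE) as GAANNGAAA or GAAANNGAA, the CRE half-site TGACG, and the CCAAT box CCAAT. They were chosen after the sequences had been seen. The NF-kappaB consensus was in the windows of 7 of the 8 genes, all but H2-T23, against 4.51% of all 32851 promoter windows. An ISRE in either form was in 8 of 8 windows, against 14.85% of all windows. Both motifs together were in 7 of 8, against 0.63% of all. The CRE half-site was in 6 of 8 windows, against 20.81% of all, and CCAAT in 8 of 8, against 37.41%. In H2-K1, H2-D1, H2-Q4, H2-Q6 and H2-Q7 the NF-kappaB match came first, and 10 bases separated it from the ISRE. H2-M3 had 15 bases between them, and its NF-kappaB match overlapped a CCAAT match. B2m had the reverse order, with the ISRE first and 4 bases between. The heavy chain promoters are related in sequence, so their windows are not independent. A match is a description of the letters and not a bound site.

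**Figure D1:**
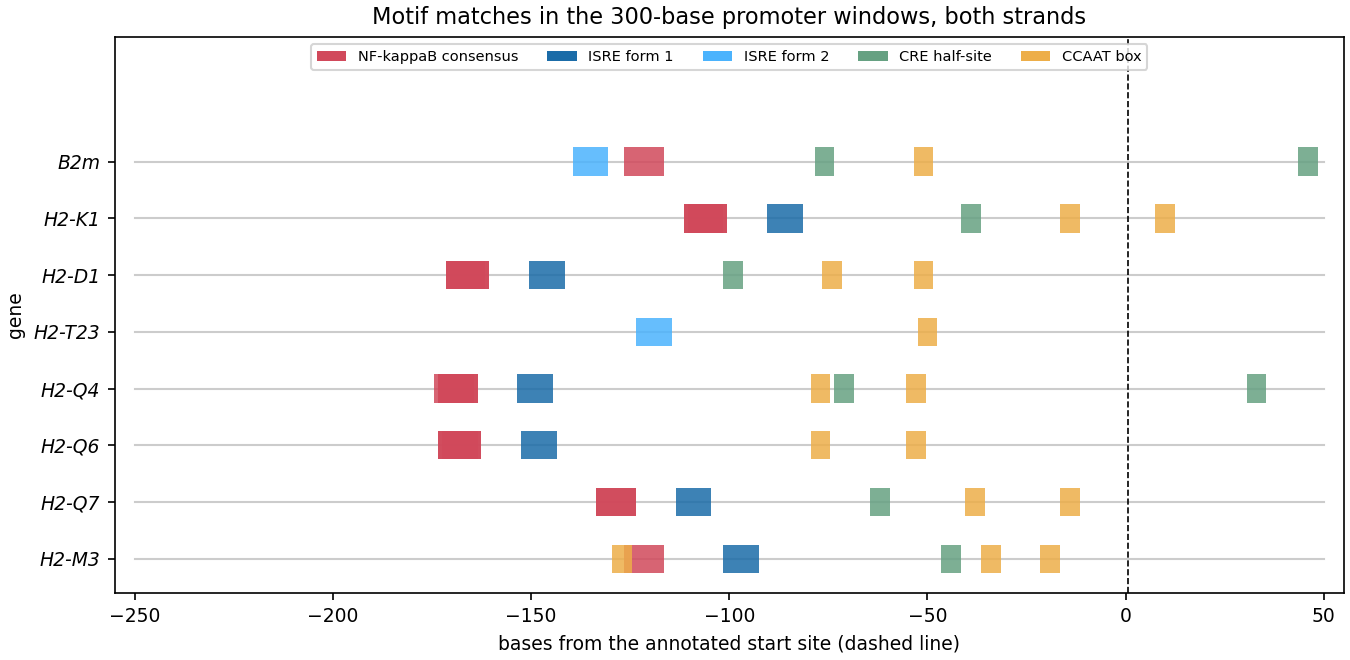
Positions of motif matches in the promoter windows of the 8 genes, in bases from the annotated start site (x axis), with 1 row per gene and colors for the motifs. The NF-kappaB and ISRE matches lie next to each other in 7 of 8 genes, with the order reversed in B2m.

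MEKi lowered Dusp6, the phosphatase that MAPK signaling itself induces, in all 4 lines. In control lines #1, #3, #5 and #10 it had 4992, 5869, 9662 and 7520 normalized counts, against 638.0, 1094, 2231 and 1278 with trametinib. The log2 fold change was -2.51 (standard error, SE, 0.14, limma adjusted p = 0.000123). Totals per library were between 30680091 and 36385719 normalized counts, and depth, estimated from the steps between low values, was about 29300000 to 45900000 reads. A floor of 3 reads stood at 2.33 to 3.72 normalized counts. Each test rests on 4 lines with 1 library per treatment. Of the 5 epithelial markers, Krt8, Krt18, Krt19 and Cdh1 were abundant, with summed counts of 207478 to 309789 with DMSO and 99903 to 193613 with trametinib. Epcam, the fifth, was at 0 in lines #1, #5 and #10 under both treatments. In line #3 it was at 10.4 with DMSO and 3.75 with trametinib.

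With MEKi, 5 of the 8 genes were higher and 0 lower, taking adjusted p values under 0.05: B2m, H2-Q4, H2-M3, H2-K1 and H2-D1. Over all 15888 genes tested, those with a mean of at least 10, 27.3% were higher and 25.6% were lower. B2m rose 2.50-fold and H2-D1 1.36-fold, the ends of the range. H2-T23 and H2-Q7 had values above 0 that did not pass, and H2-Q6 lay below the filter on low counts. The share of class I genes called higher exceeds that of all genes, but the genes were picked with earlier results known and no test of the list was made. Without the cell line as a block, 2 of 8 passed, B2m and H2-D1. Fold changes are on the scale log2(normalized count + 1), which understates changes of low genes. RNA was taken from whole cultures, in which fewer cells of a type and less RNA per cell cannot be told apart.

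**Figure D2:**
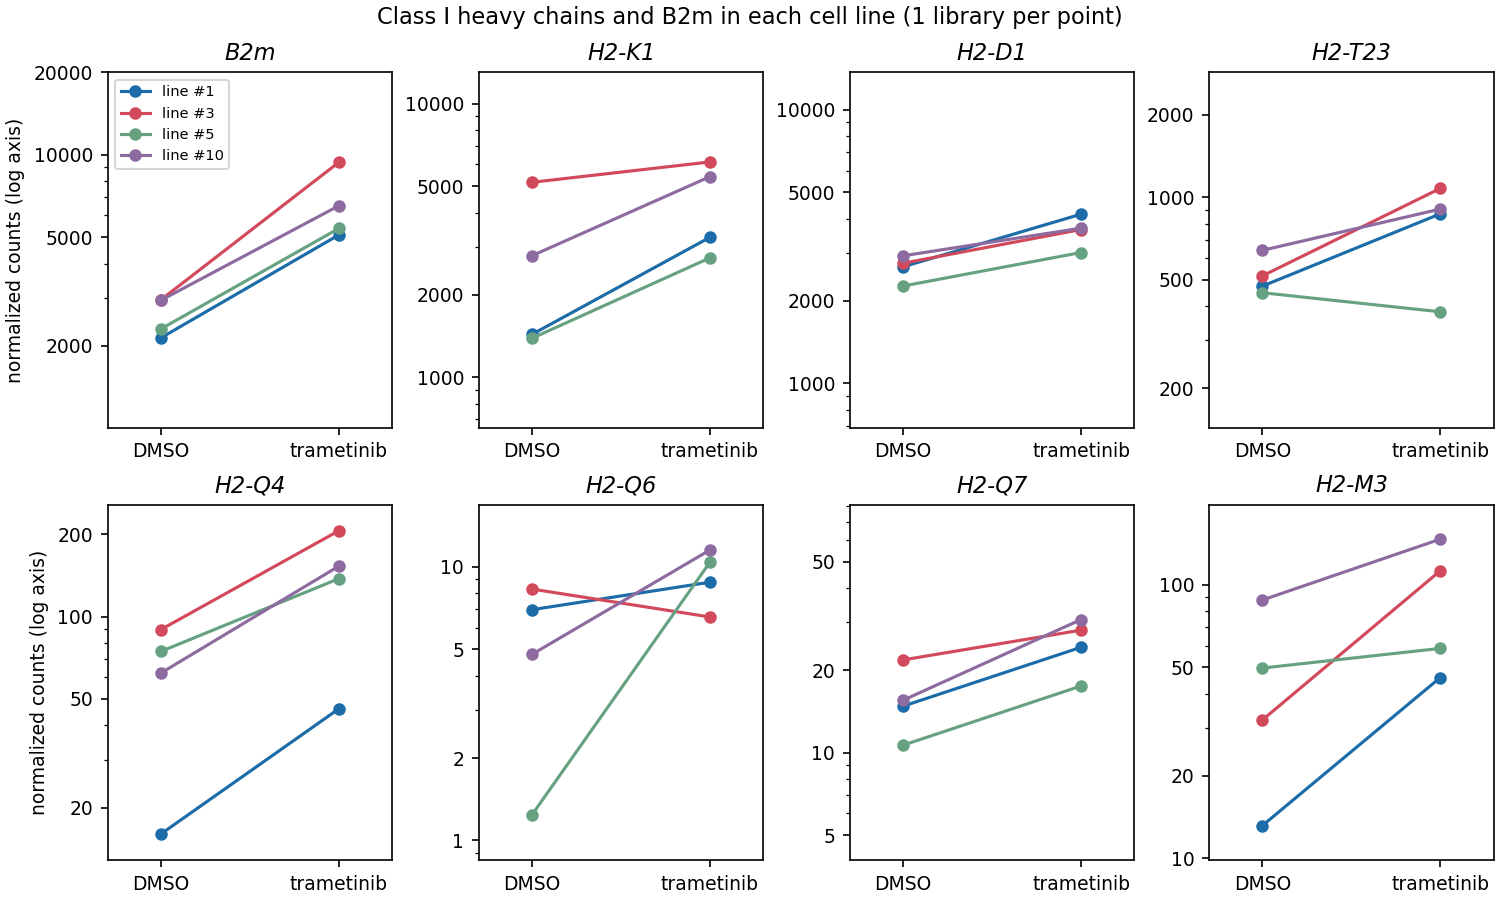
Normalized counts (log y axis) of each gene with DMSO and trametinib, where points are single libraries and lines join the libraries of a cell line. B2m and H2-D1 do not overlap between treatments, whereas in H2-K1 line #3 starts with DMSO at 5161, above the treated levels of lines #1 and #5.

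B2m, on chromosome 2 from 122147686 to 122153083 (GRCm38, plus strand), encodes the light chain that nearly all class I heavy chains need to reach the cell surface. Its normalized counts were 2139 in line #1, 2947 in #3, 2306 in #5 and 2935 in #10 with DMSO. With trametinib they were 5091, 9382, 5375 and 6507 in the same order. Every treated library was above every control library, and line #3 rose most. The log2 change was 1.25, 1.67, 1.22 and 1.15 by line, and the fitted value was 1.32 (SE 0.11, limma adjusted p = 0.000335). Under the 14 alternatives the adjusted p lay between 0.000128 and 0.00419, so the call held in each. Treatment accounted for 84.4% of the variance of B2m over the 8 libraries on the log2 scale and line for 13.6%. The medians over all genes tested were 36.7% and 44.8%.

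H2-K1, on chromosome 17 from 33996017 to 34000347 (minus strand), is a classical heavy chain. The controls held 1434, 5161, 1388 and 2782 normalized counts in lines #1, #3, #5 and #10, and the treated libraries held 3248, 6127, 2732 and 5412. Line #3 was highest under both treatments, and with DMSO it stood 3.72-fold above line #5. This spread between lines is larger than the response to the drug, and the groups overlapped. Within lines the log2 change was 1.18, 0.25, 0.98 and 0.96, above 0 in 4 of 4. The fitted log2 fold change was 0.84 (SE 0.16, limma adjusted p = 0.00433), and the adjusted p was 0.187 without the block. Left without line #3, the fitted value was 1.04. Line accounted for 65.3% of the variance of H2-K1 and treatment for 29.5%.

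H2-D1, the other classical heavy chain, lies on chromosome 17 from 35262730 to 35267499 (plus strand). Its counts were nearly level among controls, at 2669, 2750, 2269 and 2927 in lines #1, #3, #5 and #10. They were 4156, 3652, 3009 and 3694 with trametinib. All treated values were above all control values, and line #5 was lowest in both groups. The log2 changes of 0.64, 0.41, 0.41 and 0.34 were small but alike, and gave a fitted value of 0.45 (SE 0.09, limma adjusted p = 0.00528). Treatment took 68.4% of the variance of H2-D1 and line 27.1%, the reverse of H2-K1. Per line, the log2 change of H2-K1 minus that of H2-D1 was 0.54, -0.16, 0.57 and 0.62. The mean difference was 0.39 ± 0.37 (SD, n = 4 lines, p = 0.25 in an exact two-sided permutation of signs, which with 4 lines cannot go below 0.13). H2-K1 thus changed more in 3 lines and H2-D1 in line #3, which is a description, since this permutation cannot pass 0.05 with 4 lines.

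**Figure D3:**
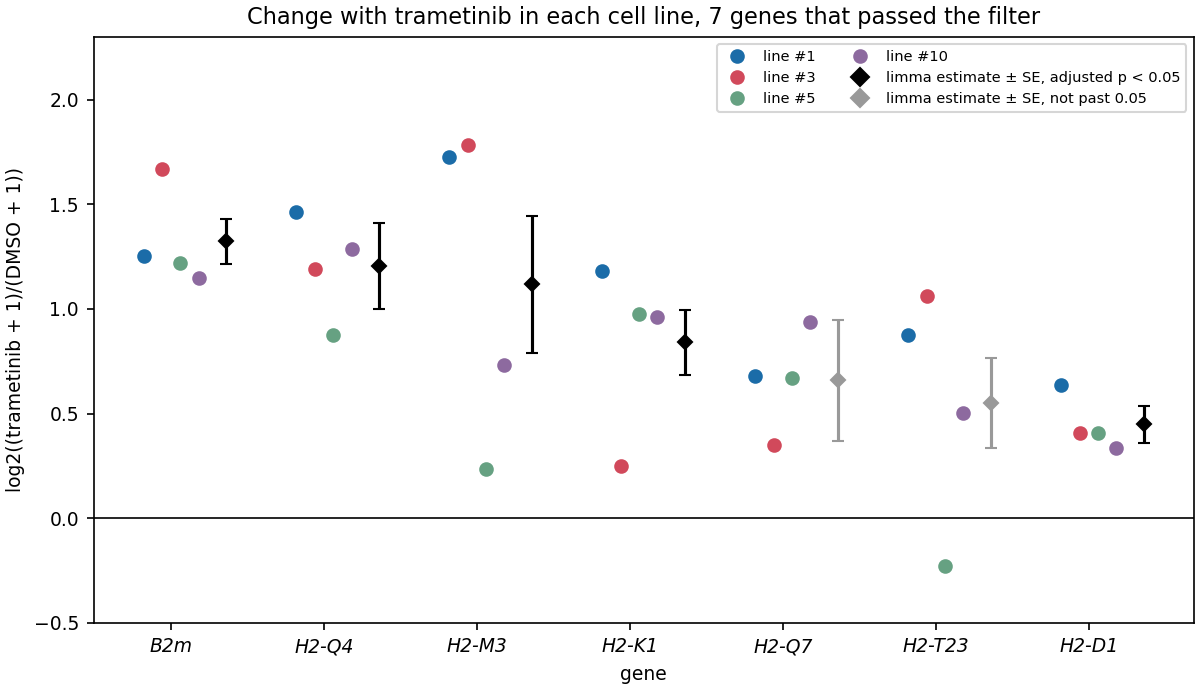
Change with trametinib (y axis, log2 of counts plus 1) of the 7 genes that passed the filter, with colored points for lines and diamonds for the limma estimate with its standard error. All points but H2-T23 in line #5 (-0.23) are above 0, and the lines differ most in H2-M3 and H2-T23.

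The Q region genes were far less abundant than the classical ones. H2-Q4, on chromosome 17 from 35379617 to 35385290 (plus strand), is a non-classical heavy chain. With DMSO it had 16.0, 89.7, 74.6 and 62.2 normalized counts in lines #1, #3, #5 and #10, and with trametinib 46.0, 206, 138 and 153. Line #1 was lowest in both groups, so that the groups overlapped, but each line rose, by 1.46, 1.19, 0.88 and 1.29 on the log2 scale. The fitted value was 1.20 (SE 0.20, limma adjusted p = 0.00307, 0.182 without the block). Line took 67.2% of the variance of H2-Q4 and treatment 31.8%. An annotated gene on the opposite strand, Gm11131, overlaps exons of H2-Q4. The library kit marks strand, and whether the quantification used it is not given in the sources used here.

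H2-Q7, from 35439155 to 35443773 (plus strand), had 14.8, 21.9, 10.7 and 15.6 normalized counts in control lines #1, #3, #5 and #10. Trametinib gave 24.3, 28.1, 17.6 and 30.7. The value was higher in 4 of 4 lines, by 0.68, 0.35, 0.67 and 0.94 in log2, but did not pass, at 0.66 (SE 0.29, limma adjusted p = 0.0951). It passed with eBayes without the trend, at an adjusted p of 0.0148, and with quantile normalization its value was 0.25 (limma adjusted p = 0.52). H2-Q6, from 35424850 to 35430055 (plus strand), was near the floor, at 6.98, 8.30, 1.24 and 4.79 with DMSO and 8.80, 6.56, 10.4 and 11.5 with trametinib. The value of line #5 with DMSO is that of about 1 read, and no fold is given for it. In the fit with no filter the adjusted p of H2-Q6 was 0.321.

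H2-T23, on chromosome 17 from 36029773 to 36032855 (minus strand), was the third most abundant of the 7 heavy chains per length, and H2-T22, outside them, stood higher with DMSO, at 460 per kb against 352. Control lines #1, #3, #5 and #10 held 473, 516, 447 and 639 normalized counts, and the treated ones 870, 1077, 381 and 905. Line #5 stood apart, with a log2 change of -0.23 against 0.88, 1.06 and 0.50 in #1, #3 and #10. The fitted value was 0.55 (SE 0.21) and did not pass (limma adjusted p = 0.0675). Left without line #5 it passed, at 0.81 with an adjusted p of 0.0114, and it passed at 0.0312 when libraries were rescaled to equal totals. No other library turned the call.

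H2-M3, from 37270220 to 37274484 on the same chromosome (plus strand), varied widely between lines. Control lines #1, #3, #5 and #10 had 13.2, 32.1, 49.6 and 88.1 normalized counts, against 45.8, 113, 58.6 and 147 with trametinib. Lines #1 and #3 rose by 1.72 and 1.78 on the log2 scale, line #10 by 0.73 and line #5 by 0.23. The groups overlapped. The fitted value was 1.12 (SE 0.33, limma adjusted p = 0.0262), the least stable of the 5 calls. It was lost with quantile normalization (0.124, with a value of 0.69), without the block (0.198) and on leaving out line #1 (0.0945), line #3 (0.0698) or line #10 (0.055).

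Levels of different genes were compared only per length, as normalized counts per kb of the longest protein-coding transcript. On this scale B2m was highest with DMSO, at 3002 ± 489 (SD, n = 4), followed by H2-K1 at 1662 ± 1093, H2-D1 at 1262 ± 132 and H2-T23 at 352 ± 58. H2-Q4 stood at 33.8 ± 17.7, H2-M3 at 31.8 ± 22.2, H2-Q7 at 10.3 ± 3.0 and H2-Q6 at 2.56 ± 1.48 per kb. In mean ± SD, neighbors overlapped in the pairs B2m and H2-K1, H2-K1 and H2-D1, H2-Q4 and H2-M3, and H2-M3 and H2-Q7. This overlap is between lines and does not compare the 2 genes of a pair within each line. The order was unchanged with trametinib, where B2m had 7661 ± 2279 and H2-K1 2705 ± 1016 per kb and no longer overlapped in mean ± SD. H2-K1 and H2-D1 together made up 86.4% ± 3.3 of the summed heavy chains with DMSO and 86.5% ± 1.6 with trametinib (SD, n = 4). Within that pair, H2-K1 accounted for 41.1%, 70.9%, 44.3% and 55.2% in control lines #1, #3, #5 and #10, and for 50.4%, 68.5%, 54.1% and 65.5% after treatment. The share of H2-K1 rose in the lines other than #3, where it was highest at the start.

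B2m changed more than the summed heavy chains in each of the 4 lines. The 7 heavy chains summed to 2508, 4937, 2324 and 3653 per kb with DMSO in lines #1, #3, #5 and #10, and to 4652, 6469, 3512 and 5928 with trametinib. B2m per kb was 2487, 3427, 2681 and 3413 in controls and 5919, 10910, 6250 and 7566 in treated lines. The summed heavy chains changed by 0.64 ± 0.21 in log2 (SD, n = 4 lines), with 0.89, 0.39, 0.60 and 0.70 by line, all above 0. The change of B2m exceeded that of the sum by 0.36, 1.28, 0.63 and 0.45, a mean of 0.68 ± 0.42 (SD, n = 4 lines), in 4 of 4 lines. These are descriptions, since an exact test over 4 lines cannot go below 0.13 and so cannot pass 0.05. Expressed as a ratio, B2m over summed heavy chains went from 0.99 to 1.27 in line #1, from 0.69 to 1.69 in #3, from 1.15 to 1.78 in #5 and from 0.93 to 1.28 in #10. Line #3, in which H2-K1 was high from the start, moved from the lowest ratio among controls to the second highest among treated lines. Ratios of RNA per length say nothing of protein.

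**Figure D4:**
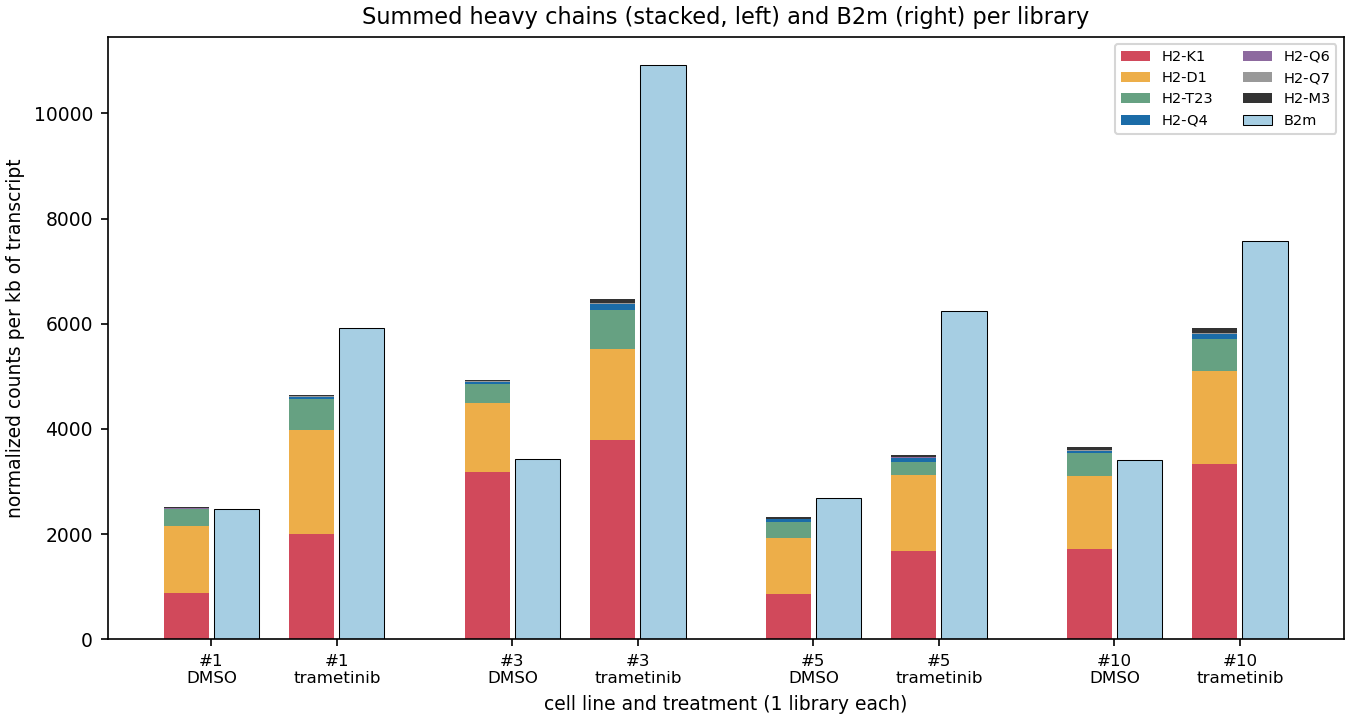
Normalized counts per kb of transcript (y axis) in each library, with the heavy chains stacked in the left bar and B2m in the right bar. B2m is close to the heavy chain sum with DMSO in lines #1, #5 and #10 and above it in all 4 lines with trametinib.

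Class I transcripts resemble each other, which bears on how reads are divided between them. Of the 31-base words in the transcripts of a gene, the share also found in another gene was 20.3% for H2-K1, 27.6% for H2-D1, 43.4% for H2-Q4, 50.3% for H2-Q6, 48.1% for H2-Q7 and 48.4% for H2-T23. It was 4.6% for H2-M3 and 0% for B2m. Values of single heavy chains other than H2-M3 are therefore uncertain, and the part of read sharing in their changes was not tested. Class I genes also differ between mouse strains, and how well the alleles of each line match the reference transcripts is not known. Its part in the levels, in the differences between lines and in the shares of H2-K1 and H2-D1 was not tested.

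The rest of the class I pathway did not move as 1 block. Of 45 genes in 5 lists, 38 were in the table and 29 had a mean of at least 10. The test called 14 of these 29 higher and 3 lower, beside 27.3% and 25.6% of all genes tested, and the median log2 fold change of the 29 was 0.40 beside 0.07 for all genes tested. Without the block the counts were 9 and 2. Among 18 other class I heavy chain genes, 11 were in the table and 6 passed the filter. H2-M5 was higher, at 1.91 (SE 0.28, limma adjusted p = 0.00171), with 11.6 to 20.4 normalized counts with DMSO and 39.1 to 110 with trametinib. The other 5, H2-Q5, H2-Q10, H2-T10, H2-T22 and H2-T24, did not pass, and H2-Q1, H2-Q2, H2-T3, H2-Bl and H2-M2 were below the filter. H2-T22, the most abundant of them, changed by 0.07 (adjusted p = 0.712 in limma). H2-T10, at 0.75, passed with eBayes without the trend (limma adjusted p = 0.0139). The genes of class I-like proteins, which also bind B2m, gave the largest values of the 5 lists. Of 5, 4 passed the filter and 3 were higher: Cd1d1, which presents lipids, at 3.48 (SE 0.36), Mr1, which presents vitamin B metabolites, at 2.77 (0.23), and Fcgrt, the neonatal Fc receptor, at 2.48 (0.26). Cd1d1 went from between 18.2 and 63.2 normalized counts to between 260 and 1037. Hfe did not pass, and Cd1d2 was below the filter.

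For peptide transport and loading, 7 genes passed the filter, of which 3 were higher and 0 were lower, beside 27.3% and 25.6% of all genes tested, and 2 were higher without the block. Tapbp, which encodes tapasin, was at 319, 406, 291 and 264 normalized counts in control lines #1, #3, #5 and #10 and at 1078, 1177, 809 and 978 after treatment. Tapbp rose by 1.66 in log2 (SE 0.12, limma adjusted p = 0.000248), against 1.32 for B2m. Tapbpl, a tapasin-related protein, was higher by 0.96, and Tap2, a subunit of the peptide transporter, by 1.80 (adjusted p = 0.0335 in limma, 0.121 without the block). Tap2 was low, at 3.53 to 33.7 with DMSO, and line #1 went from 4.41 to 81.2. Without line #1 its value was 1.09 (limma adjusted p = 0.072). The Tap2 call was lost in 6 of 13 alternatives, among them leaving out line #5 (0.0726). Tap1, its partner subunit, was below the filter. The general chaperones Calr, Canx and Pdia3 and the peptide trimming enzyme Erap1 did not pass, with values between -0.17 and 0.20. Calr passed with quantile normalization, at 0.51 (limma adjusted p = 0.0304). Canx passed on leaving out line #3, at -0.24 (limma adjusted p = 0.0347).

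Of the 5 immunoproteasome and activator genes, 3 passed the filter, 2 of them higher and 1 lower, beside 27.3% and 25.6% of all genes tested, and without the block 0 were higher and 1 lower. Psmb10, a catalytic subunit of the immunoproteasome, fell from 594, 904, 711 and 1083 normalized counts to 224, 214, 272 and 454 in lines #1, #3, #5 and #10, a log2 fold change of -1.53 (SE 0.16, limma adjusted p = 0.000682). The groups did not overlap. Psmb8 and Psmb9, the remaining catalytic subunits, were below the filter, at no more than 8.34 and 4.32 in any library. The activator subunits Psme2 and Psme1 were higher by 0.35 and 0.24, and neither passed without the block (adjusted p = 0.0638 and 0.199 in limma). Leaving out line #1 or line #5 also ended both calls, and leaving out line #10 that of Psme1 (0.157). The Psme1 call was lost in 7 of 14 alternatives. Among them were no filter (0.0887), centering each library on its median (0.126) and eBayes without the trend (0.0789).

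Of 9 regulators of class I transcription, all passed the filter, 5 were higher and 2 lower, against 3 and 1 without the block. Over all 15888 genes tested the shares were 27.3% and 25.6%, and without the block 2205 genes were higher and 2347 lower, so the 2 lower regulators are near the share of all genes. Rfx5, a subunit of the RFX complex that binds MHC promoters, rose by 1.06 (SE 0.14), Nfkb1 by 0.91 (0.08) and Rfxank, also of RFX, by 0.52 (0.10). Creb1, which binds the CRE, fell by 0.45 (0.08) on the same scale. Named after their values were seen, Rela was higher by 0.45 (0.098 without the block, as an adjusted p in limma) and Irf2 lower by 0.45 (0.082 likewise, and 0.0664 without line #10). The call of Irf2 was also lost on rescaling to equal totals (0.0555). Irf1 was higher by 0.40, at the edge of the threshold (adjusted p = 0.0488 in limma). Its call was lost in 9 of 14 alternatives, among them no block and leaving out line #1, #5 or #10, and without line #5 its value was 0.27 (limma adjusted p = 0.178). Nlrc5, the transactivator of class I genes, was low and uneven, at 13.4, 1.00, 16.5 and 7.04 normalized counts with DMSO and 55.6, 4.77, 16.6 and 2.39 with trametinib in lines #1, #3, #5 and #10. Nlrc5 passed the filter only through its treated values, so its test is not given, and Rfxap did not pass the test. Nlrc5 was likewise singled out after its values were seen.

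**Figure D5:**
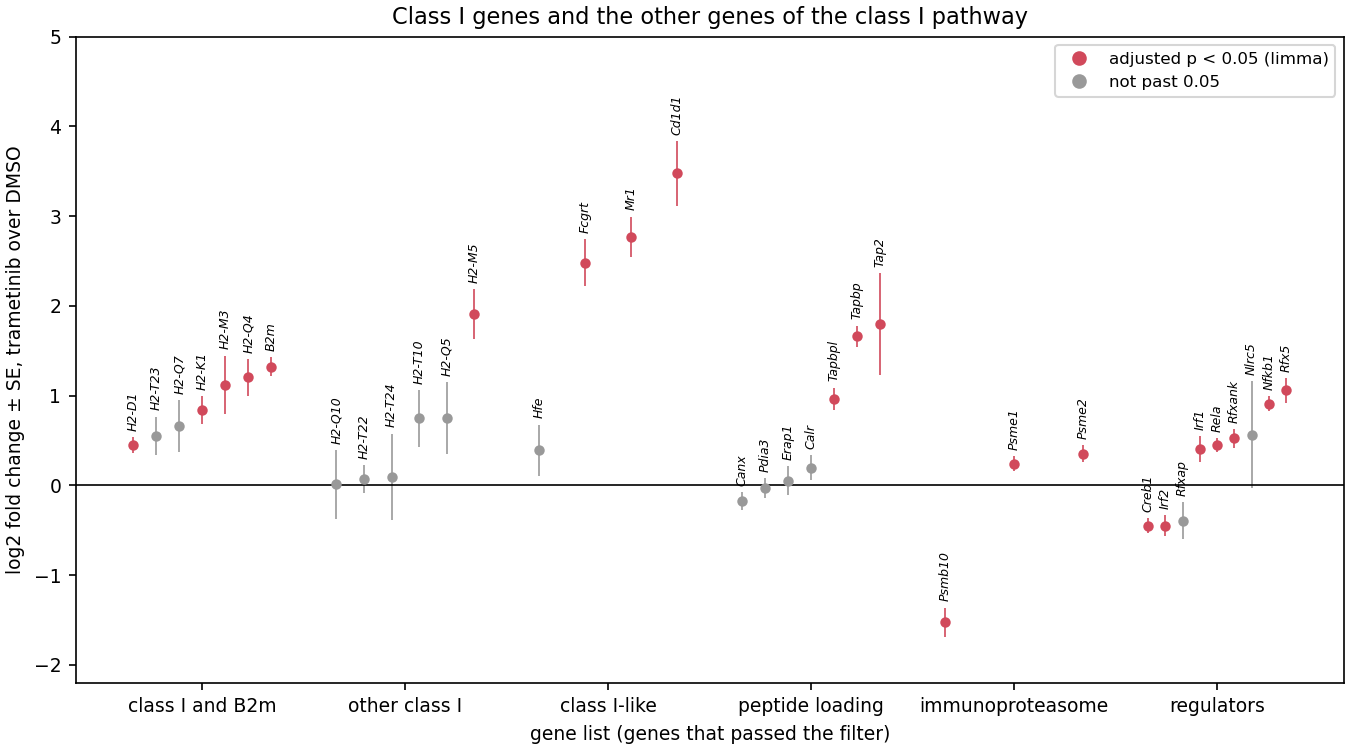
Log2 fold change with trametinib, with standard error (y axis), of the genes that passed the filter in each list (x axis), in red where the adjusted p in limma is under 0.05. Among the class I pathway lists, the class I-like genes reach the highest values, up to 3.48, and Psmb10 is lowest, at -1.53.

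MHC class II genes were low. Of 7 class II genes, 6 were in the table and 2 passed the filter, H2-DMa and H2-DMb1. H2-DMb1 had 4.91, 8.62, 0 and 18.2 normalized counts in control lines #1, #3, #5 and #10 and 15.9, 64.6, 3.63 and 28.7 with trametinib. It passed the filter only through its treated values, so no call is drawn from it. H2-Aa, H2-Ab1, Cd74 and Ciita were below the filter. Summed markers of other cell types stood far below the epithelial ones. Csf1r and Col1a1 were called higher, and with trametinib they reached 340 and 1110 normalized counts. Over all genes tested 27.3% were higher and 25.6% lower, so 1 of 3 or 1 of 4 is near that share. The 7 leukocyte markers in the table, of 8 listed, summed to 150 to 232 normalized counts with DMSO and 234 to 510 with trametinib, and 1 of the 3 that passed the filter was higher, Csf1r, at 2.83, which did not pass without the block (adjusted p = 0.0891 in limma). Cd68 was the most abundant of them with DMSO, at 135 to 188 normalized counts, against 130 to 228 with trametinib. It did not pass, at 0.23 (adjusted p = 0.468 in limma). Ptprc did not pass, at 0.05 (adjusted p = 0.924 in limma), and Cd3e and Lyz2 were at 1.91 or less with DMSO. The 7 fibroblast markers summed to 83.5 to 351 and 417 to 1243, with 1 of 4 higher, Col1a1 at 3.60, and Lum at 0 in all libraries. Col1a1 went from between 30.1 and 130 normalized counts to between 360 and 1110, and its call held in all 14 alternatives. Col3a1, Pdgfra and Dcn did not pass, at 0.53, 0.10 and -0.01. The 3 endothelial markers summed to 14.5 to 47.3 and 25.9 to 70.3, with 0 of 2 called. In the epithelial list 3 of 4 fell, beside 25.6% of all genes tested. Krt8, Krt18 and Krt19 fell by 0.74, 0.82 and 0.66 in log2, while Cdh1 was at -0.02. None of the 3 passed without the block (adjusted p = 0.143, 0.141 and 0.0504 in limma). Leaving out line #3 gave -0.46 for Krt8 and ended the call of Krt19 (0.0501), and leaving out line #5 ended those of Krt8 (0.079) and Krt19 (0.116). The calls of Krt8 and Krt19 were also lost on rescaling to equal totals (0.0537 and 0.0564). Quantile normalization (0.0654 and 0.109) and eBayes without the trend (0.0598 and 0.0638) ended them as well. The part of these cells in the class I values was not tested.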

How the data were processed

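RNA of 4 cell lines with DMSO or trametinib was sequenced as stranded poly(A) libraries. The authors deposited normalized counts per gene, a scaled signal in which whole reads could not be recovered. The submitters' processing notes name CASAVA 2.17, Salmon 0.12, DESeq2 1.18 and mm10, and the roles of these tools are not given in the sources used here. Values were transformed as log2(value + 1) and fitted with limma 3.58.1 in R 4.3.3, with a mean-variance trend and the cell line as a block, for the 15888 genes averaging 10 or more. Benjamini-Hochberg adjustment ran over these genes, with a threshold of 0.05. Libraries are paired because the labels give both libraries of a line its number, and they deviated together from their group means, with correlations across genes of 0.63 to 0.72. Per-length values used GENCODE M21. An allele of the model and a regulator gene are not reported here. The genes and lists were chosen with earlier results of these data known. All 8 genes were named, and from each pathway list up to 4 of those past the threshold with the largest changes. Outside this rule, the regulators Rela, Irf2, Irf1 and Nlrc5 were also described. Python 3.11.15 with pandas 2.3.3 was used for tables, and matplotlib 3.10.9 for plots. Alternatives were pseudocounts of 0.1 and 5, 3 rescalings, 2 filters, no block, 2 forms of eBayes, leaving out each line and, for sums, no length division or all class I genes.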

Additional observations from a re-analysis of the deposited data

Results flagged for a closer look

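The log2 change of H2-K1 minus that of H2-D1 was -0.16 in line #3 and 0.54 to 0.62 in the other 3 lines, and line #3 lay far from the others by Dixon's criterion. It was the 1 such value among 31 sets of 4 lines examined, of which chance would mark about 1 in 20, or 1.55 in all, so that 1 is no more than chance gives. In line #3 H2-K1 went from 5161 to 6127 normalized counts and H2-D1 from 2750 to 3652.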

How the results depend on the processing

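Pairing of the libraries by line was the choice that moved the counts most. Without the replicate block, 4552 genes were called in place of 8416, 2 of the 8 class I genes in place of 5 and 9 of the pathway genes higher in place of 14. H2-K1, H2-Q4 and H2-M3 were the 3 class I genes lost. Their log2 fold changes were the same, at 0.84, 1.20 and 1.12, while their standard errors went from 0.16, 0.20 and 0.33 to 0.44, 0.63 and 0.60, since differences between lines then count as error. No setting gave a class I gene as lower. With each line left out in turn, 4 to 6 of the 8 genes were called. Rescaling to equal totals moved the median log2 fold change of all genes from 0.07 to 0.20 and the calls from 4341 higher and 4075 lower to 5315 and 3284, with 6 class I genes higher. Quantile normalization went the other way, with a median of -0.02, 3822 genes higher and 4198 lower. There 4 class I genes were higher, and H2-Q4 was at 0.80. The calls of B2m and H2-D1 held in all 14 alternatives, and those of H2-K1 and H2-Q4 in 13. The mean change of the summed heavy chains lay between 0.56 and 0.77 over 11 alternatives, and the excess of B2m over it between 0.48 and 0.79. The difference between H2-K1 and H2-D1 lay between 0.32 and 0.58 over 9 alternatives. Many of these alternatives could move little. Leaving out 1 of 4 lines cannot shift a mean by as much as 1 SD between lines. Scaling a whole library by 1 factor cancels in a difference between genes. The limits are 4 lines, 1 library each, an unknown strain and a table without counts of reads. Depth limits H2-Q6, whose lowest value lay under the floor of 3 reads.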

Other observations

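The genes whose values were most like those of B2m over the 8 libraries, among 11439 genes with a mean of at least 100, were Lrtm2, Trim68, Klhl13, Atat1 and Rab11fip3, with Pearson correlations of log2(value + 1) from 0.993 to 0.996. For H2-K1 they were Sirt7, Pctp, Ubxn6, A430033K04Rik and Hps4, with correlations from 0.975 to 0.989. These are descriptions over 4 pairs of libraries that share the treatment, and neither list holds another class I gene.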
